A study of Homo sapiens with 15 samples.

Results

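Mitochondria carry their own small genome, and the nuclear genes that govern how much of it is kept and read were the subject here. They were 10 genes chosen by name for their place in mitochondrial biogenesis, 10 of the 19483 genes named on the array: the PGC-1 coactivators PPARGC1A, PPARGC1B and PPRC1, the nuclear transcription factors NRF1 and GABPA, the mitochondrial transcription machinery TFAM, TFB1M, TFB2M and POLRMT, and the helicase TWNK, which the array design still names C10orf2. The 10 genes were represented by 12 probes, taken wherever a spot's RefSeq identifier belonged to one of them, with 2 probes each for PPARGC1B and TFAM and 1 for every other gene. Of the 10 genes, 9 were tested, with all 11 of their probes well above local background on every array, out of 12370 genes tested in all.

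The cells were PE/CA-PJ41, an immortalised line from a human oral squamous cell carcinoma. The samples labelled NCE (for non-cytoglobin expressing) carried an empty vector according to the labels, although the study's text also calls its controls un-transfected parent cells, and those labelled CYGB+ were a line stably transfected with pCMV6-Neo holding the human cytoglobin cDNA, selected in G418 sulfate by cloning ring. Both were kept in supplemented medium for 24 hours before RNA was taken, with no other treatment. Per the study's methods the CYGB+ cells of the arrays were the single clone LST421, so the transgene and the clone cannot be told apart. Each group had 3 biological replicates, hybridised on 3 arrays per NCE replicate and 2 per CYGB+ replicate (15 arrays), and the question was which transcripts differed between the groups.

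In outline, the PGC-1 proteins are coactivators that do not bind DNA themselves but raise the output of factors such as NRF1, GABPA and the oestrogen-related receptors. NRF1 and GABPA bind the promoters of many nuclear genes for mitochondrial proteins, including those of the mitochondrial transcription machinery. Inside the organelle TFAM packages and bends the DNA, TFB2M and POLRMT start transcription, TFB1M methylates the small ribosomal RNA, and TWNK unwinds the DNA for replication.

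Promoter sequence is shown for 4 of the genes because their windows hold a letter match to the sites that GABPA or NRF1 are known to prefer. GABPA and NRF1 are members themselves, but whether either acts on these genes was not tested. The windows cover the 250 bases before the annotated start (RefSeq, GRCh38.p14), are written 5′ to 3′ on the gene's own strand, and were available for 8 of the 10 genes, all except NRF1 and TWNK. Capitals mark CCGGAAGT, a form of the ETS-family site that GABPA binds, and GCGCATGC, part of the palindrome that NRF1 binds, searched on both strands. Matches to the NRF1 word can overlap each other, since it is nearly its own reverse complement.
GABPA (chr21:25734722-25734971, plus strand): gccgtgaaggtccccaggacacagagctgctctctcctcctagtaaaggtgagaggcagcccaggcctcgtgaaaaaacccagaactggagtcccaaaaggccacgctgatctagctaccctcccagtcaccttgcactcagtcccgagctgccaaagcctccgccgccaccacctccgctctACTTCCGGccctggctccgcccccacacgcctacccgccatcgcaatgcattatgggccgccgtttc
TFB1M (chr6:155314485-155314734, minus strand): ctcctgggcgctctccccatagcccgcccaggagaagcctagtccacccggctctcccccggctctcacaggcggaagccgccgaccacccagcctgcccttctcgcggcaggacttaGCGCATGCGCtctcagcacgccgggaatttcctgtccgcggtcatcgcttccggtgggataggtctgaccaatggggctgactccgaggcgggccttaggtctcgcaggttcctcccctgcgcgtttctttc
TFB2M (chr1:246566262-246566511, minus strand): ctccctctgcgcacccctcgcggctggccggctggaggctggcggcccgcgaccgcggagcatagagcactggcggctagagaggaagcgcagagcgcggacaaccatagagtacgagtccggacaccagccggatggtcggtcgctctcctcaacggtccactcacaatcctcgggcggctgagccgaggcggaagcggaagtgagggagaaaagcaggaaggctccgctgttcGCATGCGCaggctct
POLRMT (chr19:633538-633787, minus strand): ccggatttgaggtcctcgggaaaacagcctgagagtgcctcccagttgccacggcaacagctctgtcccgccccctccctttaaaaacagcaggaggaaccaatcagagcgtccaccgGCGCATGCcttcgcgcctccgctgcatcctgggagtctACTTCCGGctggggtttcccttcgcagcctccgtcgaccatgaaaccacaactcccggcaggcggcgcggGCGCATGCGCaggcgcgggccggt

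GABPA's own window held the ETS word once, on the opposite strand. TFB1M and TFB2M held the NRF1 word, and POLRMT held both words. No match was found in the windows of PPARGC1A, PPARGC1B, PPRC1 or TFAM, which says only that these letters are not there. Over all 35116 windows of the same length, 3.42% held the ETS word and 2.63% the NRF1 word. A letter match is a description and not a binding site.

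Values below are log2 green-channel intensities after background correction and quantile normalisation. Differences are CYGB+ minus NCE on the same log2 scale, so that a difference of 1 is a doubling of that intensity. They compare a probe with itself between groups and not with other probes. The correction added an offset of 50 before logs were taken, which makes the differences, folds and intervals of dim probes smaller. With an offset of 16, GABPA differed by -0.81 instead of -0.69, and the first PPARGC1B probe by 0.37 instead of 0.26. The 8 oral epithelial markers (KRT5, KRT14, KRT6A, KRT17, TP63, CDH1, EPCAM and SFN) were well above background on all 15 arrays. So were 1 of 6 fibroblast (COL1A2), 1 of 4 leukocyte (CD14) and 0 of 3 endothelial markers. Of these 3 marker sets, 3, 1 and 1 genes were below background on all arrays. The probe of the transfected gene, CYGB, read 11.87, 12.16 and 11.94 in NCE and 11.36, 12.42 and 11.96 in CYGB+ (difference -0.07 ± 0.25, SE; limma adjusted p = 0.871), and it was well above background on all 15 arrays. It thus goes against the name of the samples labelled NCE and was not higher in those labelled CYGB+. The study itself describes LST421 as a high expresser of cytoglobin, from qPCR and in-cell ELISA, with PCR for the integrated transgene. Whether the probe lies inside the transfected cDNA is not given in the sources used here. NCE and CYGB+ below mean the samples so labelled, and every direction rests on those labels. All 8 arrays of the first slide held NCE RNA, and the second slide held the 6 CYGB+ arrays with 1 NCE array, the third of NCE replicate 1. Slide and group were therefore almost the same split, and each main result is given again with slide as a block and within the second slide. In both fits the estimate of slide rests on that 1 NCE array. A call kept or lost with slide as a block is therefore not a test of slide. Median green signal was 61 to 76 on the first slide and 45 to 62.5 on the second, with a local background of 24 to 29 against 37 to 43. The first array of CYGB+ replicate 1 stood apart, with a median correlation to the other arrays of 0.925 against 0.966 to 0.984 for the rest, and the calls of members and named genes that change without it are given. In whole-cell RNA, fewer cells holding a transcript and less of it per cell cannot be told apart.

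Of the 9 genes tested, GABPA was the one that passed the test, and it was lower in the samples labelled CYGB+. Called here means a Benjamini-Hochberg adjusted p under 0.05 in limma's moderated test over all 20600 probes tested, and a gene with more probes counts by its brightest. This 1 of 9 (11.1%) stands beside 13.5% of all genes tested. In the lower direction 1 of 9 members was called against 7.15% of all genes, and in the higher direction 0 of 9 against 6.39%. With no adjustment, 4 of 9 members had p under 0.05, compared with 32.1% of all genes. The members' differences ran from -0.69 to 0.41 with a median of -0.04, 4 above 0 and 5 below, and the median over all genes was 0.00. In 4 of 9 members the 3 values of one group did not overlap those of the other, against 37% of all genes. The members' shares were therefore close to the background of this comparison.

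**Figure D1:**
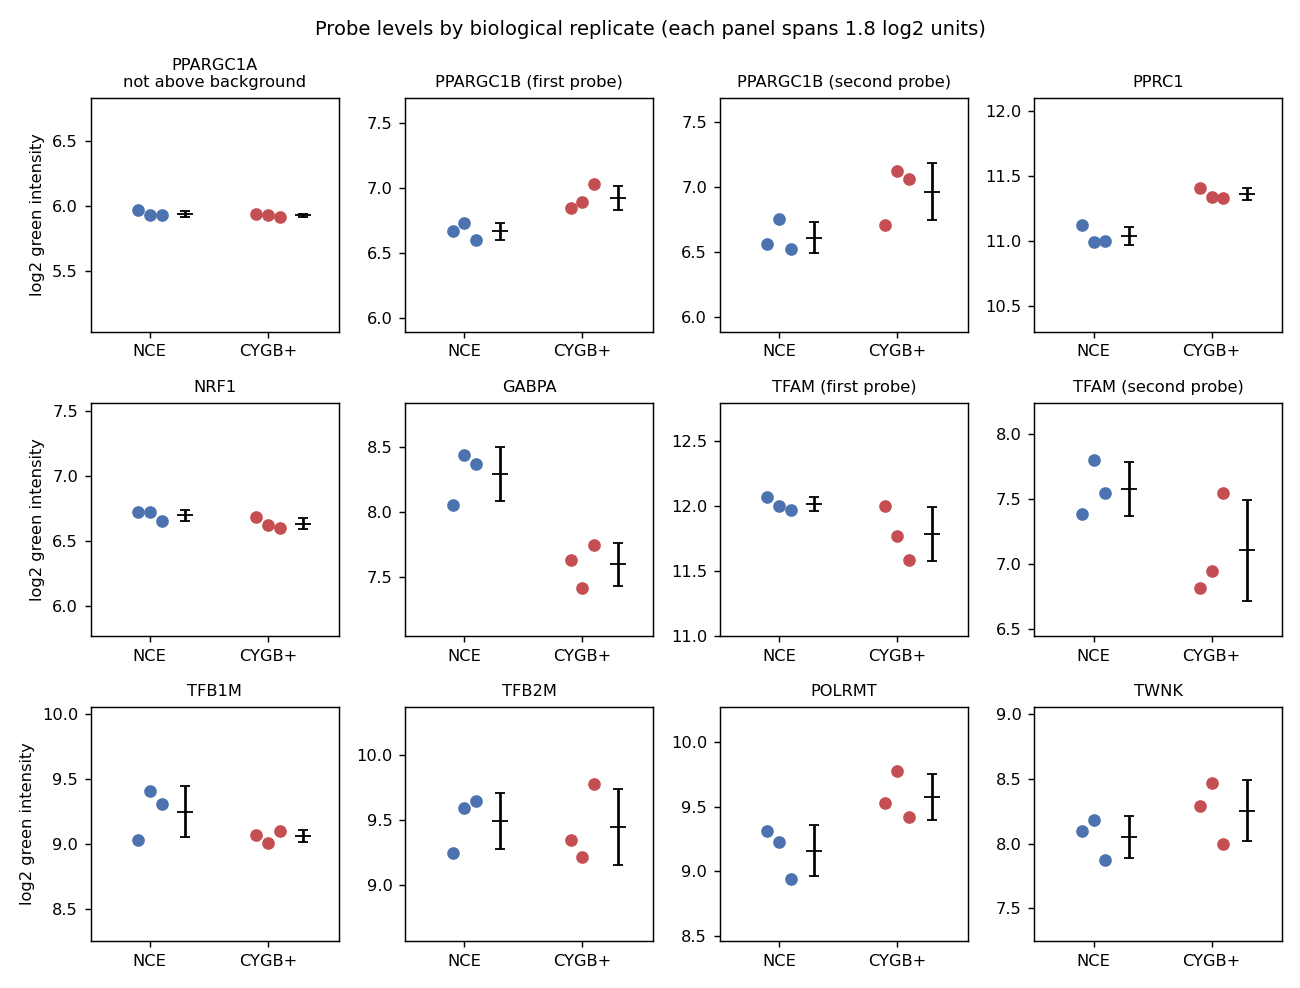
Log2 green intensity (y axis) of the 12 member probes in each biological replicate (points), with mean and SD over the 3 replicates of a group as bars. Each panel spans the same range on the log2 scale. GABPA sits at 8.05 to 8.44 in NCE and at 7.41 to 7.74 in CYGB+, PPRC1 is shifted upward in CYGB+ with little spread, and TFB2M overlaps fully.

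The PGC-1 coactivators came first in the hierarchy, and none was called. PPARGC1A, the inducible coactivator best known from muscle and brown fat, was not well above background on any of the 15 arrays (probe A_23_P18447, 5.92 to 5.97 in all 6 replicates). It was therefore not tested, and no fold is given.

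PPARGC1B, its constitutive relative, was measured by 2 probes, both above background on all arrays though near the low end of the scale. The first (A_33_P3816688) read 6.67, 6.73 and 6.60 in NCE and 6.85, 6.89 and 7.03 in CYGB+, so that the groups did not overlap. Its difference was 0.26 ± 0.10 (SE), with a 95% interval of 0.03 to 0.49 and limma adjusted p = 0.137. From the scanner's processed signals it was 0.62 (adjusted p = 0.0544), above that interval. The second (A_23_P213959) read 6.56, 6.75 and 6.52 against 6.71, 7.12 and 7.06, where CYGB+ replicate 1 fell within the NCE range. That probe differed by 0.36 ± 0.14 (adjusted p = 0.138), without the first array of CYGB+ replicate 1 by 0.47 (adjusted p = 0.0112), and without that replicate by 0.48 (adjusted p = 0.0381). The second probe also gave 0.62 from processed signals (adjusted p = 0.221). Both probes pointed the same way.

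PPRC1, the serum-responsive PGC-1-related coactivator, had the tightest replicates among the differences above 0.3. Its probe (A_23_P127079) read 11.12, 10.99 and 11.00 in NCE and 11.41, 11.34 and 11.33 in CYGB+, with a gap of the groups wider than the spread within either. Every one of the 6 CYGB+ arrays, at 11.28 to 11.47, lay above every one of the 9 NCE arrays, at 10.94 to 11.17. The difference of 0.33 ± 0.09 (1.25-fold, 95% interval 0.11 to 0.54) missed the threshold, with limma adjusted p = 0.0626. With slide as a block it was 0.32 (adjusted p = 0.157), and within the second slide 0.29. Leaving out the first array of CYGB+ replicate 1 gave 0.35 and adjusted p = 0.0284.

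NRF1 and GABPA are transcription factors on which the coactivators act. NRF1, the nuclear respiratory factor, read 6.72, 6.72 and 6.65 in NCE and 6.68, 6.62 and 6.60 in CYGB+ (A_23_P59418). The groups overlapped, and the difference of -0.07 ± 0.09 (adjusted p = 0.675) had a 95% interval of -0.27 to 0.14. Like PPARGC1B, this probe was above background on all arrays but near the low end of the scale. Over 20 alternatives its difference ran from -0.14 to -0.05.

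GABPA, the DNA-binding subunit of nuclear respiratory factor GABP, read 8.05, 8.44 and 8.37 in NCE and 7.63, 7.41 and 7.74 in CYGB+ (A_33_P3269588). NCE replicate 1 was the lowest of its group and still above all CYGB+ values. GABPA fell by 0.69 on the log2 scale (NCE 1.62-fold higher, SE 0.14, 95% interval -1.03 to -0.36, limma adjusted p = 0.0245). On single arrays NCE ranged from 7.97 to 8.52 and CYGB+ from 7.40 to 7.76. The call ended with slide as a block, where the difference was -0.45 ± 0.18 (adjusted p = 0.227). Within the second slide it was -0.38 (adjusted p = 0.625), a comparison whose NCE side is the 1 array of NCE replicate 1. That replicate was also the low one on the first slide, where its arrays read 8.08 and 8.11, against 7.97 on the second. The part of slide in the GABPA difference was not tested beyond these values. The call was also lost without NCE replicate 2, NCE replicate 3 or CYGB+ replicate 2, one at a time, with differences of -0.62, -0.65 and -0.60 (adjusted p = 0.104, 0.099 and 0.0567).

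**Figure D2:**
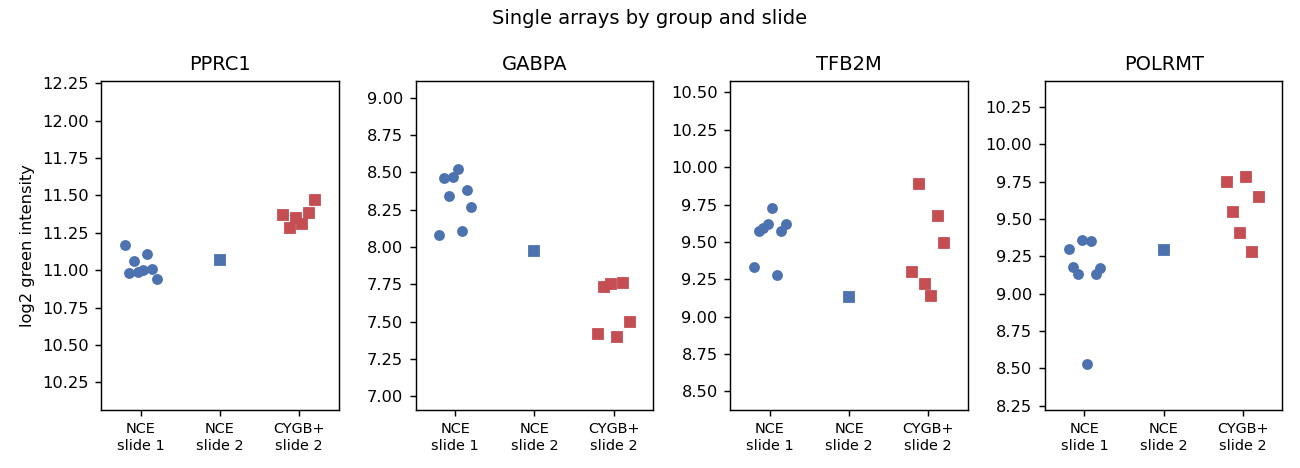
Log2 green intensity (y axis) of PPRC1, GABPA, TFB2M and POLRMT on each of the 15 arrays (points), split by group and slide. GABPA on the single NCE array of the second slide, at 7.97, lies below all NCE arrays of the first slide and above all 6 CYGB+ arrays.

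The GABPA window printed above faces a gene on the other strand. ATP5PF, which encodes coupling factor 6 of the mitochondrial ATP synthase, is transcribed from the opposite strand, with 1 annotated start 68 bases before the GABPA start and another 82 bases after it. This gene was singled out for its position with its values already seen. ATP5PF read 13.28, 13.31 and 13.22 in NCE and 12.37, 12.63 and 12.44 in CYGB+, without overlap. It was lower by a difference of -0.79 ± 0.11 (NCE 1.73-fold higher, limma adjusted p = 0.00722), and slide as a block left it called at -0.83 (adjusted p = 0.0144). Both genes of the pair were thus lower in CYGB+. The slide block kept the call of ATP5PF and ended that of GABPA, but its slide term rests on 1 NCE array. The part of slide in either difference was not tested.

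GABPA works with a beta subunit, encoded by GABPB1 or GABPB2. GABPB2 read 8.12, 7.73 and 8.05 in NCE and 8.99, 8.50 and 8.67 in CYGB+, a rise of 0.75 ± 0.16 (1.68-fold, limma adjusted p = 0.0289). With slide as a block its difference was 0.36 (adjusted p = 0.684). The brighter GABPB1 probe had a difference of 0.00 ± 0.11 (adjusted p = 0.999), whereas its second probe was higher by 0.42 (adjusted p = 0.0318), so that the probes of this gene disagreed. With slide as a block the brighter probe was higher by 0.49 (adjusted p = 0.0496). Genes with the ETS word in their window were called in 97 of 826 cases (11.7%, 42 lower and 55 higher, median difference 0.03), beside 13.3% of all 9966 genes tested that had a window. For the NRF1 word the count was 70 of 555 (12.6%, 38 lower and 32 higher, median difference 0.02). Neither share stood above that of all genes with a window.

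Of the mitochondrial transcription machinery no gene was called. TFAM, which coats mitochondrial DNA and activates its promoters, had 2 probes. The brighter (A_33_P3389188) read 12.07, 12.00 and 11.97 in NCE and 12.00, 11.77 and 11.58 in CYGB+, overlapping in CYGB+ replicate 1. The dimmer (A_24_P134727) read 7.39, 7.80 and 7.55 against 6.82, 6.95 and 7.55, overlapping in CYGB+ replicate 3. Their differences were -0.23 ± 0.13 and -0.47 ± 0.21 (limma adjusted p = 0.275 and 0.178), in the same direction. The brighter was -0.04 and the dimmer -0.91 from processed signals scaled to the 75th percentile, and -0.08 and -0.83 in the deposited value table. Without CYGB+ replicate 3 the dimmer probe differed by -0.69 (adjusted p = 0.0484). The lower bound of the intervals was -0.53 for the brighter and -0.95 for the dimmer probe.

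TFB1M, the ribosomal RNA methyltransferase, read 9.03, 9.41 and 9.31 in NCE and 9.07, 9.01 and 9.10 in CYGB+ (A_23_P93499). NCE replicate 1 lay among the CYGB+ values. The difference of -0.19 ± 0.12 (adjusted p = 0.339) turned to 0.03 with slide as a block and to 0.10 within the second slide.

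TFB2M, the factor that opens the mitochondrial promoter for the polymerase, read 9.25, 9.59 and 9.65 in NCE and 9.35, 9.22 and 9.78 in CYGB+ (A_23_P45940). Its groups covered nearly the same range. The difference was -0.04 ± 0.18 (adjusted p = 0.899), with a 95% interval of -0.45 to 0.37, and it turned to 0.25 with slide as a block.

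POLRMT, the mitochondrial RNA polymerase, had the largest positive difference among the brightest probes of the 9 genes. It read 9.31, 9.23 and 8.94 in NCE and 9.53, 9.77 and 9.42 in CYGB+ (A_23_P131096), with no overlap between replicates. On single arrays the groups did overlap, since NCE arrays ran from 8.53 to 9.36 and CYGB+ arrays from 9.28 to 9.78. The lowest of these, at 8.53, was an array of NCE replicate 3 and lay well under the other 8 NCE arrays. The difference of 0.41 ± 0.14 (1.33-fold, 95% interval 0.08 to 0.74) had limma adjusted p = 0.102. It was 0.34 with slide as a block, 0.28 within the second slide and 0.45 without the first array of CYGB+ replicate 1 (adjusted p = 0.652, 0.736 and 0.0476).

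TWNK, the replicative helicase, read 8.10, 8.18 and 7.87 in NCE and 8.29, 8.47 and 8.00 in CYGB+ (A_23_P138461). CYGB+ replicate 3 lay within the NCE range. The difference of 0.20 ± 0.15 had a 95% interval of -0.14 to 0.55 and adjusted p = 0.41.

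**Figure D3:**
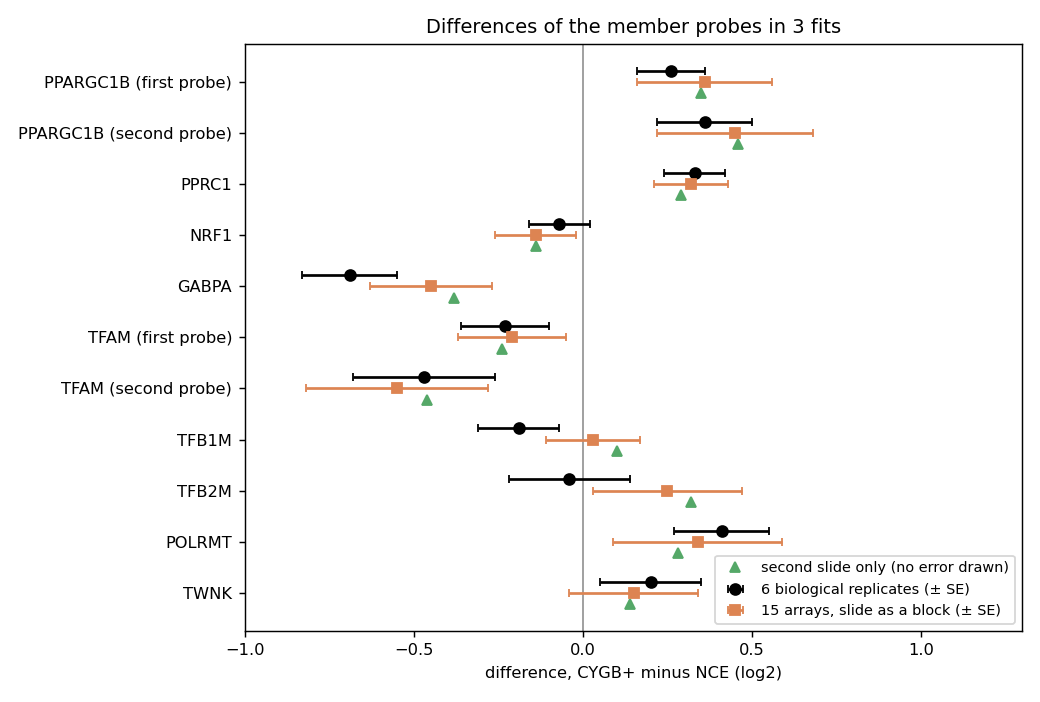
Difference between CYGB+ and NCE (x axis, log2) of the 11 tested member probes in 3 fits, over the 6 biological replicates and over 15 arrays with slide as a block (points with SE), and within the second slide (triangles). PPARGC1B, PPRC1, NRF1, TFAM, POLRMT and TWNK keep their side of 0 in all of them, GABPA moves from -0.69 to -0.38, and TFB1M and TFB2M change side.

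Genes that work beside the members were counted in 4 lists, of which 55 of 59 genes were tested. In these, 6 of 55 genes were called (10.9%, beside 13.5% of all genes), 2 higher and 4 lower. Without the first array of CYGB+ replicate 1 there were 9, with RRM1 (-0.53, adjusted p = 0.0414), FASTKD3 (-0.43, adjusted p = 0.0383) and ESRRA added, while 23.4% of all genes were called. Every list count of the reported fit below has 13.5% of all genes as its background, with 7.15% lower and 6.39% higher. The replication and repair factors of mitochondrial DNA, which share TWNK's task, held no called gene. Their 13 genes include the polymerase subunits POLG and POLG2, the single-strand binding protein SSBP1 and the topoisomerase TOP1MT. They gave 0 calls in limma and 0 in the methods' t-test, which called 518 of all 12370 genes. At an unadjusted limma p under 0.05 there were 5, beside 32.1% of all genes, and the median difference was -0.01. Leaving each array as a value of its own, with the replicate as a random block, called 5 of the 13, where the same fit called 26.6% of all genes. TOP1MT had the largest difference of that list (0.42 ± 0.13, limma adjusted p = 0.084).

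Of 9 genes that supply nucleotides for mitochondrial DNA, MPV17, an inner-membrane protein whose loss depletes the mitochondrial genome, was the one called. Its brightest probe rose by 0.54 ± 0.10 (limma adjusted p = 0.0185), while its other 2 probes differed by -0.01 and 0.18 (adjusted p = 0.967 and 0.267), and the call ended with slide as a block (0.41, adjusted p = 0.181). Among 20 genes that extend, end, process or stabilise mitochondrial transcripts, 2 fell and 18 were not called. A dimmer probe was called for LRPPRC (0.51, limma adjusted p = 0.0189) and for MTERF4 (-0.44, adjusted p = 0.0284). Their brightest probes differed by -0.10 and -0.05 (adjusted p = 0.611 and 0.774), and their remaining probes by -0.01 and -0.24. With slide as a block the 2 dimmer probes had adjusted p = 0.164 and 0.653. PRORP, the nuclease that frees the 5′ ends of mitochondrial transfer RNAs, fell by 0.58 on the log2 scale (SE 0.11, limma adjusted p = 0.018), or -0.21 with slide as a block (adjusted p = 0.626). SLIRP, which holds messenger RNAs stable together with LRPPRC, fell by 0.41 (SE 0.10, adjusted p = 0.0457), and by a larger -0.80 with slide as a block (adjusted p = 0.0232). With same-numbered replicates as pairs the adjusted p of SLIRP was 0.0551. TEFM, the elongation factor of POLRMT, differed by 0.23 ± 0.16 (adjusted p = 0.382).

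Of 13 tested partners and upstream regulators of the coactivators, 1 rose, 2 fell and 10 were not called. PPARG, a nuclear receptor that PGC-1 proteins coactivate, fell from 7.85, 7.91 and 8.01 in NCE to 7.16, 7.23 and 7.16 in CYGB+. The groups were far apart, the difference was -0.74 ± 0.09 (NCE 1.68-fold higher, limma adjusted p = 0.0063), and its second probe differed by -0.93 (adjusted p = 0.00549). It was called with slide as a block as well, at -0.64 (adjusted p = 0.00392). NRIP1, a corepressor that opposes PGC-1 action, read 9.23, 9.42 and 9.75 in NCE and 8.84, 8.28 and 8.90 in CYGB+. Its difference was -0.79 ± 0.20 (adjusted p = 0.0456), and -0.65 with slide as a block (adjusted p = 0.336). The second NRIP1 probe differed by -0.69 (adjusted p = 0.0874), and by -0.85 without the first array of CYGB+ replicate 1 (adjusted p = 0.0182). GABPB2, described above with GABPA, was the gene that rose. ESRRA, the receptor through which PGC-1 proteins act on respiratory genes, differed by 0.23 ± 0.23 at its brighter probe (adjusted p = 0.55) and by 0.65 ± 0.15 at its second (adjusted p = 0.033), which does not stand for the gene in the count. Without the first array of CYGB+ replicate 1 the brighter ESRRA probe differed by 0.43 (adjusted p = 0.0463).

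**Figure D4:**
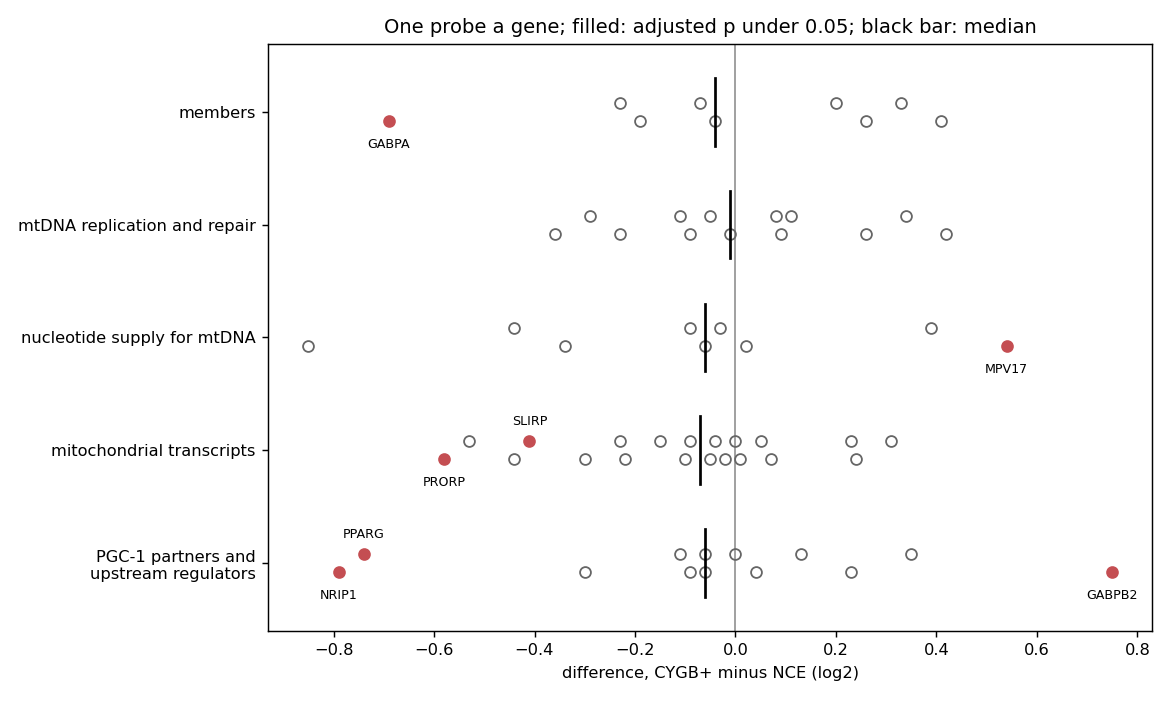
Difference between CYGB+ and NCE (x axis, log2) of each tested gene, 1 probe a gene, for the members and the 4 lists (y axis). Filled points passed the test and are named, open points did not, and the black bars are medians, which lie between -0.07 and -0.01.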

How the data were processed

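RNA (50 ng) of PE/CA-PJ41 cells was labelled and hybridised to Agilent 8x60K arrays by the authors. The deposited scanner files (Agilent Feature Extraction 10.7.3.1, per the file headers) hold green and red intensity. Samples are labelled cyanine 3, so the green channel was used. The study's methods place control RNA in cyanine 5, and the red channel, whose RNA the labels do not describe, was not used. Median spot and background signals, the spot statistics in the files (the planned mean signal is not among them), were corrected by normexp (offset 50), quantile-normalised, and averaged over spots and then over arrays of a biological replicate with limma 3.58.1 in R 4.3.3. Probes were kept when well above background on over 50% of the arrays of each of the 3 replicates of at least 1 group (20600 of 42405), and lmFit and eBayes compared 3 CYGB+ with 3 NCE replicates. Of the 42405 probes, 25422 were matched to 1 gene by RefSeq identifier. The test was checked on simulated data. The deposited series table (natural log, centred, 15040 probes) served as an alternative. Its scale was found by setting it against the scanner values, its array medians run from -0.161 to 0.182, its direction is that of the scanner values, and how it was centred is unknown. PPARGC1A, PPARGC1B and NRF1 have no probe in it.

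Deviations of same-numbered replicates correlated at 0.21, 0.23 and 0.31, so the numbers were taken as pairs for an alternative fit, from the data and not from the labels. Differently numbered replicates correlated at -0.51 to 0.30, so this pairing is not singled out. The labels say that RNA was extracted on separate occasions, so p-values of the reported fit measure the spread between those extracts. The fits with slide as a block and with a random block took all 15 arrays. Each used a single correlation for all probes between arrays of the same replicate (0.198 and 0.193). Their p-values therefore also draw on the spread between repeat arrays of the same extract. This limit applies to every slide-block and random-block p-value given here, among them those of GABPA, GABPB1, ATP5PF, PPARG and SLIRP. All 12 member probes are named, and in each related list the called genes. The members and lists were chosen with earlier results of these data known. The number of arrays limits the precision.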

Additional observations from a re-analysis of the deposited data

How the results depend on the processing

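GABPA was below 0 under all 21 alternatives (-0.95 to -0.38, limma adjusted p 1.7e-04 to 0.625) and passed the test in 15 of them. The number of members called, 1 in the reported fit, was 0 with slide as a block, where 575 of all 12370 genes were called. Within the second slide the lone NCE array was assumed to vary like the other group, so no member count is given. The member count was 0 in the methods' t-test, where 518 of all 12370 genes were called, and 0 to 1 when a replicate was left out. It was 2 with no filter on dim probes, where PPRC1 was added (limma adjusted p = 0.0309) and 2055 of all 42405 probes were called. It was 3 with 15 arrays and the replicate as a random block (26.6% of all genes called). It was also 3 without the first array of CYGB+ replicate 1, a setting chosen after seeing the data (23.4% of all genes called). PPRC1 and POLRMT were above 0 in all 21 alternatives (0.28 to 0.43 and 0.28 to 0.53), as was TWNK (0.09 to 0.33), and TFAM was below 0 at both probes (-0.34 to -0.04 and -0.91 to -0.33). The PPARGC1B probes ran from 0.20 to 0.62 and from 0.28 to 0.62. With same-numbered replicates as a block, 1 member, 8 of the 55 related genes and 3006 of 20600 probes were called, and no member's call changed. Among the related genes that fit added RRM1, SAMHD1 and FASTKD3 (limma adjusted p = 0.0432, 0.036 and 0.0376) and lost SLIRP (adjusted p = 0.0551).

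TFB1M turned to 0.03 with slide as a block and 0.10 within the second slide. TFB2M turned to 0.25 and 0.32 under the same settings, to 0.03 with processed signals scaled to the 75th percentile and in the deposited table, to 0.00 without the first array of CYGB+ replicate 1, and ran from -0.21 to 0.07 when a replicate was left out. The cause was not tested.

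The related genes called, 6 in the reported fit, were 3 with processed signals and 1 with processed signals scaled to the 75th percentile. With slide as a block there were 3, of which PPARG and SLIRP were called in the reported fit and GABPB1 was not. There were 15 with a random block, 2 in the methods' t-test, 3 in the deposited table (of 51 genes tested, not 55) and 1 to 4 without 1 replicate. Over all probes, 2391 in the reported fit became 1567 with 75th percentile scaling, 765 with slide as a block (652 of them shared), 5 within the second slide, 4773 with a random block, 746 in the methods' t-test, 1444 in the deposited table, 4137 without the first array of CYGB+ replicate 1, and 514 to 2383 without 1 replicate.

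The number of replicates and the near coincidence of slide and group limit these results. Signal over background limits PPARGC1A, for which no difference can be given.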
